A study of Mus musculus with 19 samples.

Results

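Satellite repeats are the repeats that RepeatMasker places in the class Satellite, and the members were found by that class alone, which uses no measured value. Of 2634743 repeat elements outside genes, 25434 carried the class, and of 1234 repeat names 9 did. IMPB_01 was the largest name with 17529 elements, followed by MurSAT1 with 5684, ZP3AR with 1146, MMSAT4 with 908, GSAT_MM with 80, SYNREP_MM with 68, SUBTEL_sa with 13, and (CATTC)n and CENSAT_MC with 3 each. Together they covered 0.429% of the bases of all repeats that are not RNA genes.

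The study asked whether cystic embryoid bodies (EBs), fluid-filled bodies that embryonic stem (ES) cells form in culture, are a model of the visceral yolk sac endoderm (ysE), the outer layer of the mouse visceral yolk sac (VYS). Repeat RNA was counted in 6 libraries. The 2 cystic EB libraries came from the female ES cell clone JN of a C57BL/6x129 cross at day 10 (d10) and day 15 (d15) of differentiation, so they are 1 clone at 2 times and are treated as replicates as the study did. The 2 ysE libraries (A and B) and the 2 VYS mesoderm libraries (A and B) came from FVB embryos at embryonic stage E9.25, each from a pooled litter whose layers were parted by hand after an enzyme treatment. DNA methylation was read by whole genome bisulfite sequencing (WGBS) in other material, namely ysE and fetal liver at E12.5 from CAST and FVB reciprocal crosses (CxF and FxC) and d15 cystic EBs of the male clones CF-C2 and FC-A2 of the same crosses. H3K4me3, a histone mark of active start sites, was mapped in 1 library of whole VYS of FVB embryos at E12.5. RNA and methylation therefore come from different stages, strains and clones, and are set side by side below without a test.

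In mouse, satellite DNA is best known from the centromere. The major satellite, which RepeatMasker calls GSAT_MM, forms long tandem arrays beside the centromere of most chromosomes, where its heterochromatin carries H3K9 trimethylation laid down by the SUV39H enzymes, bound by HP1 proteins and kept methylated by DNA methyltransferases. Assembled genomes hold only a small part of these arrays. Reads of an array can match many places, so a read assigned to 1 copy names the family more surely than the copy. The other names of the class are found mostly outside centromeres, in dispersed elements or local tandem clusters.

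Sequence was at hand only where the promoter window of a RefSeq gene (GRCm38.p6, the same build as mm10) overlapped an element, which was so for 8 MMSAT4, 18 IMPB_01, 6 ZP3AR, 4 MurSAT1, 1 GSAT_MM and 1 SUBTEL_sa elements. The stretches below are from the plus strand and leave out the first 50 bases of each gene. Capitals mark CG dinucleotides, the kind of place where bisulfite data can read methylation. The stretches are shown as examples of the letters behind each name and of such CGs. Chromosome 13 was left out of the methylation results, so the CGs printed from it have no value here. The SUBTEL_sa element had 2 reads at CGs in cystic EBs FxC and 0 in the other bisulfite libraries. Except for SUBTEL_sa, the stretches are not from the elements with the most reads of their names.
MMSAT4 at chr13:62351591-62351840: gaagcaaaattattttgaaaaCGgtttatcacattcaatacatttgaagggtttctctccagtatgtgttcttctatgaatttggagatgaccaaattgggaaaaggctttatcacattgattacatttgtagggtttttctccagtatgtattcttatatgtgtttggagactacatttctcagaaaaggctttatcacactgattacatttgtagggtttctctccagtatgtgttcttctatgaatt
MMSAT4 at chr13:66597813-66597889: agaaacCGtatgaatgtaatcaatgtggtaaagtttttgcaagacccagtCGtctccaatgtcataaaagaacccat
MMSAT4 at chr12:20084782-20084809: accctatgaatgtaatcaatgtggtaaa
GSAT_MM at chr5:114922455-114922511: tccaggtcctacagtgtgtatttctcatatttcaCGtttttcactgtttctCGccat
MurSAT1 at chrX:123222620-123222725: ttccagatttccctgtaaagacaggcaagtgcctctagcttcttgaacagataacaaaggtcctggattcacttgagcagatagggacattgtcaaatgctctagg
ZP3AR at chr6:115762498-115762635: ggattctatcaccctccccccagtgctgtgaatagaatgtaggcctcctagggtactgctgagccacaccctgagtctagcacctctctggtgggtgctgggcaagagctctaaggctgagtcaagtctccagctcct
IMPB_01 at chr16:17723002-17723197: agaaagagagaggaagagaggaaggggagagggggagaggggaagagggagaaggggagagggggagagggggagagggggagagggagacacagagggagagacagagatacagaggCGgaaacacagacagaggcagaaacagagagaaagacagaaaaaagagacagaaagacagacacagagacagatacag
SUBTEL_sa at chr8:124897743-124897877: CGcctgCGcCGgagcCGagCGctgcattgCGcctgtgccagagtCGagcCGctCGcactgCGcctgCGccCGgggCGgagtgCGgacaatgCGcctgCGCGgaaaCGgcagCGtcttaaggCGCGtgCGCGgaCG

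The stretch of MMSAT4 on chromosome 13 upstream of Gm19792 held 1 CG in 250 bases at a GC content of 33.2%, and the MurSAT1 stretch none in 106. The IMPB_01 stretch upstream of Med15 held 1 CG in 196 bases. The SUBTEL_sa element, in the promoter window of Exoc8 and overlapping the gene span of Sprtn, held 24 in 135 at a GC content of 74.1%. The second and the third MMSAT4 stretch, on different chromosomes, share a run of 24 bases:
shared run: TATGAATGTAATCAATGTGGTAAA
This run was picked as the longest shared by MMSAT4 stretches of such windows. Searched on both strands, it occurred in 4 of 32851 promoter windows (0.0122%), and the windows it was picked from are among these. The elements of the second and the third stretch had RNA reads in different patterns. The element at chr13:66597813-66597928 had 15 and 8 reads in cystic EBs and 0 in the other 4 libraries, while the element at chr12:20084671-20084809 had 103 and 53 in cystic EBs against 39 and 31 in ysE and 27 and 16 in mesoderm.

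Repeat reads numbered 86063967 to 188223399 per library, 65.9% to 79.4% of them in RNA genes such as ribosomal and transfer RNA, which were left out of the scale used below (RPM, reads scaled to 1000000 such repeat reads). Markers of the labelled tissues were read from the authors' RPKM. The 6 ysE markers (Afp, Ttr, Amn, Cubn, Hnf4a and Apob) summed to 8970 and 9781 in ysE, 996 and 1780 in mesoderm, and only 129 and 462 in cystic EBs, where all 6 lay below both ysE libraries. The 4 pluripotency markers (Pou5f1, Zfp42, Nanog and Dppa5a) summed to 317 and 223 in cystic EBs against 6.09 and 5.26 in ysE and 0.960 and 1.18 in mesoderm. The 6 mesoderm and vessel markers (Kdr, Pecam1, Cdh5, Col1a1, Col3a1 and Acta2) summed to 1177 and 1043 in mesoderm and to at most 47.9 in ysE and 197 in cystic EBs, and the liver markers Alb and Ahsg to at most 0.266 in any library. Embryonic globins (Hbb-y, Hbb-bh1 and Hba-x) summed to 43848 and 34149 in mesoderm, 850 and 1018 in ysE, and 62.4 and 126 in cystic EBs. The part of pluripotent and erythroid cells in the differences below was not tested. Of the RNA libraries, ysE A and B stood 31.0-fold apart for GSAT_MM, so the fold changes of that name are given with and without ysE B.

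Satellites held 0.493% and 0.527% of the repeat reads outside RNA genes in d10 and d15 cystic EBs, against 0.374% and 0.355% in ysE and 0.738% and 0.516% in mesoderm. The ysE libraries were lowest and did not overlap either of the other groups. The most abundant name in this share differed among the libraries. MMSAT4 was the most abundant name in cystic EBs, IMPB_01 in ysE, and GSAT_MM in mesoderm A but IMPB_01 in mesoderm B.

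**Figure D1:**
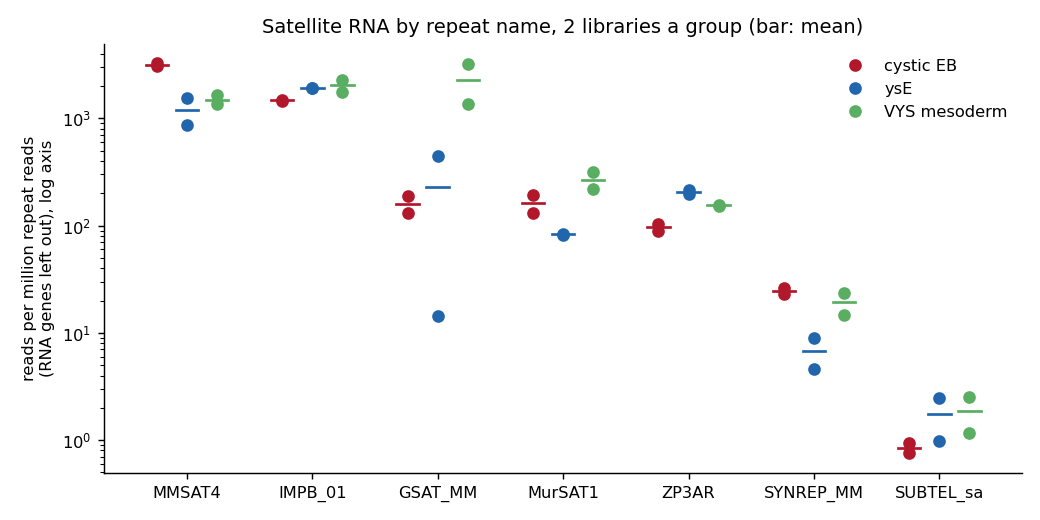
RNA of 7 satellite names in the 6 libraries, as RPM, on a log axis. Each point is 1 library and each bar the mean of 2; MMSAT4 lies at 3100 and 3255 in cystic EBs and between 863 and 1637 in the other 4 libraries, and the ysE points of GSAT_MM lie at 14.5 and 449.

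Between cystic EBs and ysE, 4 of the 8 satellite names that passed the filter on low reads were called at a false discovery rate (FDR) of 5%, 3 higher and 1 lower in cystic EBs. Over all 1190 names tested, 34% were called, 16.9% higher and 17.1% lower, with a median log2 fold change of 0.02. MMSAT4, SYNREP_MM and MurSAT1 were higher in cystic EBs, and ZP3AR was lower. The test was edgeR's quasi-likelihood test on reads summed by name, with adjustment over all names. With 2 libraries a group, the smallest p of an exact permutation test is 0.333, and every call rests on a spread that the fit shares among names. In bulk tissue, fewer cells of a type and less RNA per cell cannot be told apart. Each arm rests on 2 libraries, and without d10 cystic EBs no satellite name was called (adjusted p 0.0543 to 0.0901 for these 4), while without d15 only ZP3AR was. Over all names the calls also fell there, to 7.28% and 10.7%. The log2 fold changes without d10 and without d15 were 1.47 and 1.55 for MMSAT4, 1.95 and 1.93 for SYNREP_MM, 1.23 and 0.85 for MurSAT1 and -0.97 and -1.04 for ZP3AR.

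MMSAT4 had the largest difference in reads between cystic EBs and ysE. Of its elements 83.8% lay within 10 kb of another, and its level per kilobase of annotated sequence was the highest of the 9 names in cystic EBs, at 11.2 and 11.8 RPM per kilobase. MMSAT4 had 90873 and 83428 reads in cystic EBs against 35302 and 33476 in ysE and 31752 and 39215 in mesoderm. On the RPM scale these were 3100 and 3255, 1538 and 863, and 1365 and 1637. Both cystic EB libraries lay above all 4 yolk sac libraries, and the ysE and mesoderm ranges overlapped. The log2 fold change of cystic EBs over ysE was 1.49 (SE 0.25, adjusted p 0.00994, edgeR) and that over mesoderm 1.23 (SE 0.25, adjusted p 0.0672, edgeR), which missed the threshold. The difference from mesoderm passed it by DESeq2 (adjusted p 0.000320), with library sizes taken from transcripts (0.0249), without the element with the most reads of each name (0.0392) and without ysE A (0.0109) or ysE B (0.00780). Between ysE and mesoderm the log2 fold change was -0.25 (SE 0.25, adjusted p 0.499, edgeR), and without ysE A it was -0.68 (adjusted p 0.0383).

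Chromosomes 2, 13 and 4 held the most MMSAT4 reads, 18.9%, 16.8% and 13.2% of all. Chromosome 2 held 93 elements with 741 and 747 RPM in cystic EBs against 185 and 103 in ysE and 189 and 245 in mesoderm. Chromosome 4 held only 11 elements, with 514 and 496 RPM in cystic EBs against 126 and 47.1 in ysE and 166 and 216 in mesoderm. On chromosome 13, which carries the most elements (212), the RPM were 591 and 531, 208 and 171, and 189 and 254. On all 3 the cystic EB libraries lay above the other 4. On chromosome 7, with 86 elements, cystic EBs (188 and 230 RPM) overlapped ysE (216 and 122 RPM).

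**Figure D2:**
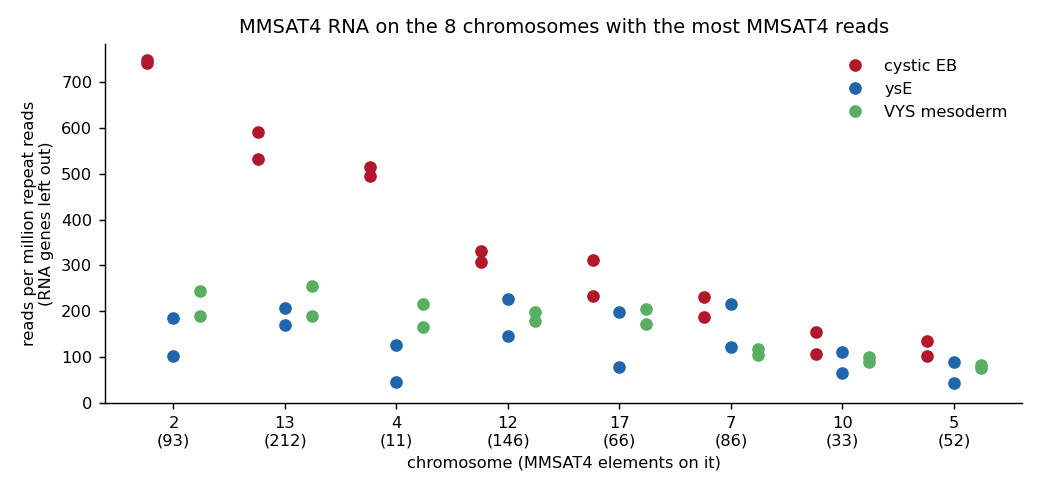
MMSAT4 RNA on the 8 chromosomes with the most MMSAT4 reads, as RPM, with the number of MMSAT4 elements in brackets. Each point is 1 library; on chromosomes 2, 13 and 4 the cystic EB points lie between 496 and 747 and those of ysE and mesoderm between 47.1 and 254.

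A stretch of chromosome 2 (chr2:176099087-177980985, 66 elements) held 14.8% of all MMSAT4 reads. Its RPM were 593 and 610 in cystic EBs against 132 and 74.8 in ysE and 141 and 178 in mesoderm. A cluster of 7 elements at chr4:146049976-147515105 held 10.5%, with 369 and 384, 100 and 36.9, and 160 and 201 RPM. Its elements did not move alike. The element at chr4:146717972-146720845, 2874 bases long and in the span of Zfp993, had 4351 and 4146 reads in cystic EBs against 12 and 7 in ysE and 35 and 27 in mesoderm. The element at chr4:146657747-146658412, in the same gene span, had 1158 and 1033 in cystic EBs against 994 and 605 in ysE and 2011 and 2793 in mesoderm, where it was highest. The element with the most reads of the name, at chr17:22286643-22288522 in the span of Gm7072, had 1339 and 1927, 1825 and 1006, and 1371 and 1635, and the 3 groups overlapped.

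MMSAT4 elements lay near zinc finger genes more often than other repeats did, as a count without a test. Zfp genes encode DNA-binding proteins with tandem zinc fingers, and many of those in clusters carry a KRAB domain that recruits TRIM28 and the H3K9 methyltransferase SETDB1. Of 908 MMSAT4 elements, 218 (24.01%) lay within 50 kb of a RefSeq gene whose symbol starts with Zfp, against 1.61% of all repeats, 5.15% of ZP3AR and 0.943% of IMPB_01. Although the counts are of repeats outside genes, 582 MMSAT4 elements (64.1%) overlapped a gene span of the RefSeq table used here, which also lists pseudogenes and non-coding genes, against 16.3% of all repeats. The table of repeats thus holds reads that could come from transcripts of such genes, and their part was not tested. Whether MMSAT4 elements themselves hold coding sequence of zinc finger genes was not tested either. The 218 elements near Zfp genes had 1077 and 1189 RPM in cystic EBs against 651 and 362 in ysE and 513 and 643 in mesoderm. The other 690 had 2023 and 2066, 887 and 501, and 852 and 993. Both sets were higher in both cystic EB libraries than in the other 4. Zinc finger genes with other symbols were not counted, so the 690 elements are not shown to lie away from such genes.

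The Zfp transcripts near MMSAT4, a list chosen after the values were seen, were also counted. Of 95 such transcripts of 78 genes, 44 rose and 7 fell in cystic EBs relative to ysE, with a median log2 fold change of 0.67. Of 374 transcripts of other Zfp genes, 158 were higher and 34 lower, with a median of 0.49. Over all 23265 transcripts tested by edgeR, 60.9% were called, 33.7% higher and 27.2% lower, with a median of 0.18. The share that was higher was 46.3% near MMSAT4 and 42.2% for the other Zfp transcripts, and the difference between these shares was not tested. Against mesoderm the order of the shares was the other way, with 17 higher (17.9%) and 1 lower near MMSAT4 and 102 higher (27.3%) and 19 lower among the other Zfp transcripts. Over all transcripts 42.5% were called there, 21.1% higher and 21.4% lower.

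When single elements were fitted in place of names, an analysis added after the data were seen, 12.1% of 238744 elements were called between cystic EBs and ysE, 3.38% higher and 8.68% lower. Of 607 MMSAT4 elements tested, 74 (12.2%) were higher and 8 (1.32%) lower, with a median log2 fold change of 1.18 against 0.17 over all elements. Elements of 1 name share sequence and neighbours and are not replicates. An element can pass the filter on low reads only through the group where it is high. These counts and medians, here and for the names below, are therefore descriptive only. The 5 MMSAT4 elements with the largest rise were all on chromosome 13, and 3 of the 5 with the largest fall were on chromosome 11. The largest rise was at chr13:66851733-66852627 in Gm10323, with 523 and 247 reads in cystic EBs against 0 and 0 in ysE and 4 and 0 in mesoderm. At chr11:121858322-121858543 in Gm12586 the reads were 2 and 3 in cystic EBs against 20 and 16 in ysE and 50 and 45 in mesoderm. Against mesoderm 0% of all elements were called by edgeR, 0 of 238744, although 41791 had an unadjusted p below 0.05, 225 of them MMSAT4.

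The major satellite GSAT_MM varied widely, also within ysE. Its reads numbered 3882 and 4834 in cystic EBs against 332 and 17413 in ysE and 74842 and 32331 in mesoderm. On the RPM scale these were 132 and 189, 14.5 and 449, and 3217 and 1349. Both mesoderm libraries lay above the other 4, and the cystic EB libraries fell inside the range of ysE. No comparison passed the threshold. The log2 fold change was -0.51 (SE 1.31, adjusted p 0.793) for cystic EBs over ysE, -3.70 (SE 1.45, adjusted p 0.250) over mesoderm, and -3.19 (SE 1.42, adjusted p 0.157) for ysE over mesoderm, all by edgeR. Without ysE B, which leaves 1 ysE library that is taken to vary like the other groups, these became 3.59 for cystic EBs over ysE (adjusted p 0.0263) and -7.27 for ysE over mesoderm (adjusted p 0.0238), and that for cystic EBs over mesoderm became -3.68 (adjusted p 0.0305, edgeR). Without ysE A they were -1.46 (adjusted p 0.102), -2.24 (adjusted p 0.0762) and -3.70 (adjusted p 0.0400, edgeR) in the same order, so the direction between cystic EBs and ysE depends on which ysE library is kept.

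The same few arrays carried the major satellite reads in every library. The array at chr9:3000003-3038419, the assembled edge of chromosome 9, held 33.6% and 39.0% of the GSAT_MM reads in cystic EBs against 29.2% and 47.7% in ysE and 46.3% and 46.4% in mesoderm. The array at chrUn_JH584304:67398-114452, on a contig with no place on a chromosome, held 19.3% to 28.2%, and the element at chr2:98666545-98667332 held 13.3% to 16.3%. Of 22 GSAT_MM elements tested singly, 1 was called between cystic EBs and ysE (4.55%, against 12.1% of all elements), in the fit with ysE B. It lies at chrUn_JH584304:60179-60873, had 607 and 368 reads in cystic EBs against 107 and 107 in mesoderm and 54 and 123 in ysE, and its log2 fold change was 2.26 (SE 0.38, adjusted p 0.0290, edgeR). An H3K4me3 peak overlapped it.

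SYNREP_MM lies next to the major satellite at its best covered place. It had 675 and 667 reads in cystic EBs (23.0 and 26.0 RPM), 106 and 345 in ysE (4.62 and 8.89 RPM), and 553 and 354 in mesoderm (23.8 and 14.8 RPM). Cystic EBs lay above ysE and overlapped mesoderm, with a log2 fold change over ysE of 1.91 (SE 0.43, adjusted p 0.0221, edgeR). For ysE over mesoderm the log2 fold change was -1.42 (adjusted p 0.0663, edgeR), and DESeq2 called it at -1.38 (adjusted p 0.00986). Of its reads, 545 and 570 in cystic EBs against 21 and 151 in ysE and 410 and 231 in mesoderm came from 3 elements at chr2:98662469-98666525, which alternate there with elements of GSAT_MM and were each over 20% of the name's reads in at least 1 library. The largest was the element at chr2:98664881-98665222 with 208 and 212, 4 and 60, and 140 and 86 reads.

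MurSAT1 is a name of the sex chromosomes, with 5048 elements on Y and its unplaced contigs and 636 on X. It had 132 and 191 RPM in cystic EBs against 313 and 219 in mesoderm and 83.0 and 82.4 in ysE, and the 3 groups did not overlap. The log2 fold change was 1.03 (SE 0.24, adjusted p 0.0229) for cystic EBs over ysE and -1.61 (SE 0.24, adjusted p 0.0148) for ysE over mesoderm, both by edgeR. Between ysE and mesoderm it was the only 1 of the 8 satellite names called, where 20.3% of all names were, 10.8% higher and 9.58% lower in ysE. This call was lost without ysE B (-1.64, adjusted p 0.0503), where 8.57% of all names were called, and without mesoderm A (-1.31, adjusted p 0.0700), where 0.333% were. The call for cystic EBs over ysE was lost without ysE A (adjusted p 0.0787), without ysE B (0.0729) and without either cystic EB library. Against mesoderm, cystic EBs differed by -0.58 on the log2 scale (SE 0.23, adjusted p 0.253).

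Many copies of MurSAT1 could not be told apart by their reads. Of 413 elements with at least 10 reads, 198 (47.9%) had the same 6 counts as another MurSAT1 element, against 2.05% of MMSAT4. If reads were counted at several copies, the sums by name and their tests hold repeated counts, which was not tested. Elements on X held 2655 and 3966 reads in cystic EBs against 1142 and 1983 in ysE and 3420 and 3533 in mesoderm. A window of 153 elements at chrX:124198131-124902059 held 38.1% of all MurSAT1 reads. Elements placed on Y itself held 953 and 783 reads in cystic EBs against 606 and 991 in ysE and 3643 and 1544 in mesoderm. The clone JN has no Y chromosome, and its libraries had 9 and 31 reads of the Y-linked gene Ddx3y, against 12960 and 8209 in ysE and 16798 and 11706 in mesoderm. Reads assigned to Y copies of MurSAT1 were thus present in cystic EB libraries that were nearly free of Y-linked gene reads.

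ZP3AR ran the other way. It had 88.7 and 104 RPM in cystic EBs against 154 and 156 in mesoderm and 196 and 215 in ysE, and the groups did not overlap. The log2 fold change of cystic EBs over ysE was -1.03 (SE 0.13, adjusted p 0.00471), that over mesoderm -0.54 (SE 0.13, adjusted p 0.102), and that of ysE over mesoderm 0.49 (SE 0.13, adjusted p 0.0502), by edgeR. The difference between ysE and mesoderm passed the threshold by DESeq2 (adjusted p 0.00280), with library sizes from transcripts (0.0369), without RNA gene names (0.0464), without the top element (0.0426) and without ysE A (0.0474), and that between cystic EBs and mesoderm by DESeq2 (0.00758). Chromosome 5 with 446 elements and chromosome 7 with 360 held 36.9% and 23.8% of its reads. Of 99 ZP3AR elements tested singly, 2 rose (2.02%) and 12 fell (12.1%) in cystic EBs relative to ysE, against 3.38% and 8.68% of all elements, with a median log2 fold change of -0.79.

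Several ZP3AR elements had reads in ysE and next to none in cystic EBs. The element at chr14:55736954-55737030, 1990 bases from Dhrs1, had 1 and 2 reads in cystic EBs against 257 and 547 in ysE and 9 and 15 in mesoderm. It was also the only ZP3AR element called between ysE and mesoderm (log2 fold change 5.03, adjusted p 0.0435, edgeR), where 1.26% of all elements were, 0.978% higher and 0.286% lower in ysE. The element at chr8:71454788-71454862, 1838 bases from Abhd8, had 0 reads in both cystic EB libraries, 151 and 271 in ysE, and 90 and 98 in mesoderm. The element at chr3:122298499-122298595, with the most reads of the name, had 41 and 44, 339 and 611, and 137 and 142. The stretch upstream of Tmem40 printed above had 580 reads in ysE B and 0 in the other 5 libraries, ysE A included.

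IMPB_01, the name with the most elements, was called in none of the 3 comparisons by edgeR. It had 1451 and 1500 RPM in cystic EBs against 1906 and 1926 in ysE and 2306 and 1778 in mesoderm. Cystic EBs lay lowest, and ysE fell inside the range of mesoderm. The log2 fold change of cystic EBs over ysE was -0.31 (SE 0.16, adjusted p 0.169, edgeR), that over mesoderm -0.32 (adjusted p 0.339, edgeR) and that of ysE over mesoderm -0.01 (adjusted p 0.955, edgeR). Single chromosomes went in opposite directions. On chromosome 14, 844 elements had 462 and 483 RPM in cystic EBs against 77.6 and 66.9 in ysE and 315 and 280 in mesoderm. On chromosome 11, 727 elements had 27.5 and 36.6 in cystic EBs against 273 and 304 in ysE and 127 and 38.4 in mesoderm.

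Of 804 IMPB_01 elements tested singly, 43 rose and 66 fell in cystic EBs relative to ysE, which is 5.35% and 8.21% against 3.38% and 8.68% of all elements. Their median log2 fold change was 0.63 against 0.17 over all elements, and both sets had more falls than rises. Between ysE and mesoderm 11 were higher and 5 lower in ysE (1.37% and 0.622%), against 0.978% and 0.286% of all elements. The element at chr11:117620116-117620201 in Gm35170 had 444 and 826 reads in ysE and 0 in the other 4 libraries. The element at chr11:117592400-117592477, 2434 bases outside Gm35170, had the same 444 and 826 reads in ysE and 1 and 1 in cystic EBs. Equal counts at separate elements were frequent for the name, since 365 of 2801 elements with at least 10 reads (13.0%) had the same 6 counts as another. Replicates could also disagree. A window of 12 elements at chr17:31292414-31901301 had 3 and 160 reads in cystic EBs against 6196 and 60 in ysE and 5008 and 3133 in mesoderm. In ysE 19 of 126 IMPB_01 elements with at least 100 reads in 1 library had none in the other (15.1%), against 9.70% of all elements.

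IMPB_01 also holds a cluster of long copies on chromosome 6. While the median IMPB_01 element was 89 bases long, 42 were 1500 bases or longer, and 41 of them lay at chr6:114489509-114637634 between Hrh1 and Atg7, with a median length of 2129 bases. These 41 copies, grouped after the data were seen, had 771 and 370 reads in cystic EBs against 70 and 153 in ysE and 7147 and 2887 in mesoderm. On the RPM scale these were 26.3 and 14.4, 3.05 and 3.94, and 307 and 120. The 3 groups did not overlap, with mesoderm highest and ysE lowest. Of the 5 IMPB_01 elements called lower in ysE than in mesoderm, 4 lay in this cluster, with log2 fold changes of -5.43 to -6.67 (adjusted p 0.0437 to 0.0484, edgeR).

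**Figure D3:**
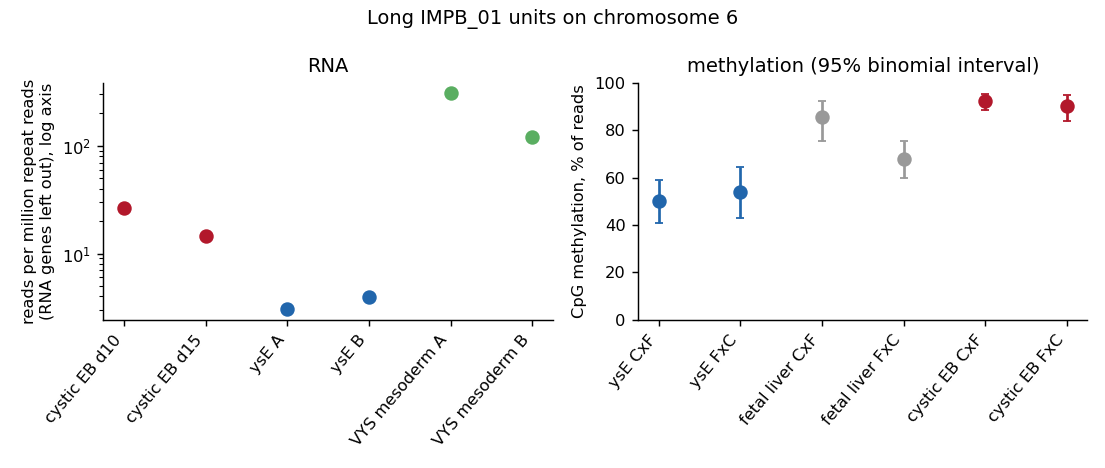
RNA (left, RPM, log axis, 6 libraries) and CpG methylation (right, percent of reads with 95% exact binomial intervals, 6 other libraries) of the long IMPB_01 copies. RNA lies at 307 and 120 in mesoderm and 3.05 and 3.94 in ysE, and methylation at 50% and 53.8% in ysE and 92.1% and 90.3% in cystic EBs.

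SUBTEL_sa, (CATTC)n and CENSAT_MC were at the edge of detection. SUBTEL_sa had 22 and 24 reads in cystic EBs against 59 and 28 in mesoderm and 57 and 38 in ysE, and no comparison passed the threshold (log2 fold change over ysE -0.93, SE 0.59, adjusted p 0.254, edgeR). The element at chr8:124897743-124897877 printed above gave 13 and 19 of these reads in cystic EBs against 15 and 24 in mesoderm and 12 and 19 in ysE, and the groups overlapped. Another element gave 36 reads in each of ysE A and mesoderm A, 4 in d10 cystic EBs and 0 in the other 3 libraries. (CATTC)n had 22 and 1 reads in cystic EBs against 0 and 6 in ysE and 36 and 4 in mesoderm, all at chr17:4626389-4626598. CENSAT_MC had 0 and 10, 0 and 8, and 1 and 11 reads and did not pass the filter.

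Between cystic EBs and mesoderm no satellite name was called by edgeR, 0 of 8, with 4 at an unadjusted p below 0.05 (MMSAT4, ZP3AR, GSAT_MM and MurSAT1) and 2 called by DESeq2. Over all names 3.03% were called by edgeR, 1.51% higher and 1.51% lower in cystic EBs, 19.6% had an unadjusted p below 0.05 and DESeq2 called 10.9%. A p that misses the threshold does not show that the tissues were alike.

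**Figure D4:**
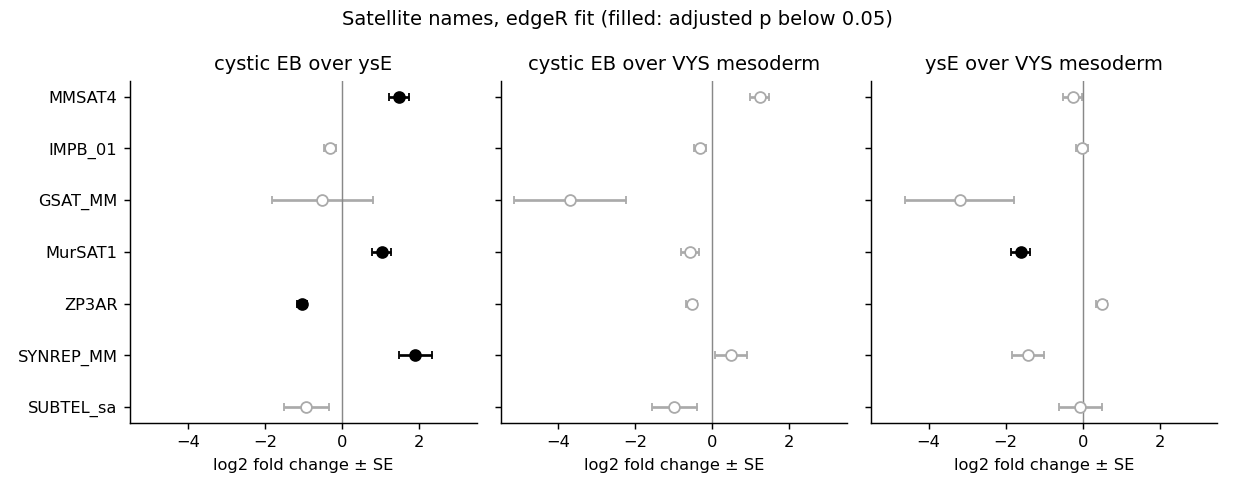
Log2 fold changes of 7 satellite names in the 3 comparisons by edgeR, with bars of 1 SE; filled points passed an FDR of 5%. MMSAT4, MurSAT1 and SYNREP_MM lie above 0 and ZP3AR below 0 for cystic EBs over ysE, and the widest bars are those of GSAT_MM.

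Methylation was measured on 5164 to 8706 reads at CpGs inside satellite elements per library, with chromosomes 13 and 15 left out since they had no calls or next to none in some libraries, and chromosomes 19, X and Y not analysed here. In the order CxF and FxC, satellites as a whole were methylated at 74.5% and 71.4% in ysE, 81.6% and 78.2% in cystic EBs and 78.5% and 81.3% in liver. The mean was 72.9% ± 2.17 (SD, n = 2) in ysE, 79.9% ± 2.38 in cystic EBs and 79.9% ± 1.98 in liver. Liver and cystic EBs overlapped, and ysE lay below both. Over all CpGs ysE had 67.7% and 60.1%, cystic EBs 86.9% and 82.6%, and liver 77.6% and 79.8%, so the tissues were closer together in satellites than over all CpGs.

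MMSAT4 was methylated at 71.5% and 64.6% in ysE (627 and 432 reads), 87.8% and 82.4% in cystic EBs (779 and 613 reads) and 77.7% and 79.98% in liver (485 and 804 reads). The 95% exact binomial intervals, which cover counting error only, were 67.7% to 74.96% and 59.9% to 69.1% in ysE, and 85.3% to 90.0% and 79.1% to 85.3% in cystic EBs. By these values the 3 tissues did not overlap, with ysE lowest and cystic EBs highest. They rest on 101 to 145 MMSAT4 elements per library, without chromosome 13. By the median element with at least 5 reads, liver CxF (88.9%) lay above cystic EBs FxC (87.5%). In elements with at least 3 reads in every library, liver FxC (91.9%) lay above both cystic EB libraries (87.2% and 84.8%). In both of these settings ysE stayed lowest.

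ZP3AR was the least methylated of the 3 names with at least 10 reads in every library. It stood at 55.2% and 40.8% in ysE (569 and 348 reads), 69.2% and 65.6% in cystic EBs (520 and 381 reads) and 56.3% and 64.7% in liver (380 and 502 reads). The ysE libraries differed by more than their intervals (51.0% to 59.3% and 35.6% to 46.2%).

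IMPB_01 gave most of the satellite reads at CpGs, 4015 to 7233 per library. It stood at 76.3% and 74.7% in ysE, 81.5% and 78.0% in cystic EBs and 79.8% and 82.8% in liver. In ysE IMPB_01 was above the level of all CpGs, and in cystic EBs below it. The long copies on chromosome 6 behaved otherwise, at 50% and 53.8% in ysE (126 and 91 reads), 92.1% and 90.3% in cystic EBs (279 and 134 reads) and 85.3% and 68.0% in liver (75 and 150 reads).

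Over repeat names, edgeR tested methylated against unmethylated reads, and a value below is the log2 change of their ratio. Only MMSAT4, ZP3AR and IMPB_01 had at least 10 reads in every library, of 1019 names in all. Between cystic EBs and ysE 2 of the 3 were called, both higher in cystic EBs, while 92.6% of all names were called and the median change was 2.17. MMSAT4 changed by 1.44 (SE 0.43, adjusted p 0.00112) and ZP3AR by 1.16 (SE 0.44, adjusted p 0.00945), and IMPB_01 stood at 0.36 (SE 0.32, adjusted p 0.269). The call of ZP3AR was lost without ysE FxC (0.75, adjusted p 0.137) and without cystic EBs CxF (1.03, adjusted p 0.0508). That of MMSAT4 was lost when only elements with at least 3 reads in every library were taken (1.67, SE 1.11, adjusted p 0.179), where 54.9% of the names tested were called. Only 1.57% of the names had a smaller change than IMPB_01, 7.16% than ZP3AR and 17.6% than MMSAT4. MurSAT1 lies on X and Y, which were not analysed here, and the other satellite names had too few reads to be placed in this order.

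Between ysE and liver 0 of 3 were called by edgeR and by limma, with 0 at an unadjusted p below 0.05, while edgeR called 71.6% of all names, all lower in ysE, and limma 52%, and 75.9% had an unadjusted p below 0.05 by edgeR. MMSAT4 stood at -0.80 (SE 0.42, adjusted p 0.0749), ZP3AR at -0.73 (SE 0.44, adjusted p 0.114) and IMPB_01 at -0.50 (SE 0.32, adjusted p 0.137), against a median of -1.27. Without ysE CxF, MMSAT4 (-1.04, adjusted p 0.0476) and ZP3AR (-1.16, adjusted p 0.0326) were called. Between cystic EBs and liver 0 of 3 were called by edgeR and by limma, also with 0 at an unadjusted p below 0.05, against 19.4% of all names called by edgeR (19.3% higher and 0.0981% lower), 0.294% by limma and 38% at an unadjusted p below 0.05 by edgeR, with a median of 0.80. The values were 0.63 for MMSAT4, 0.43 for ZP3AR and -0.14 for IMPB_01.

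**Figure D5:**
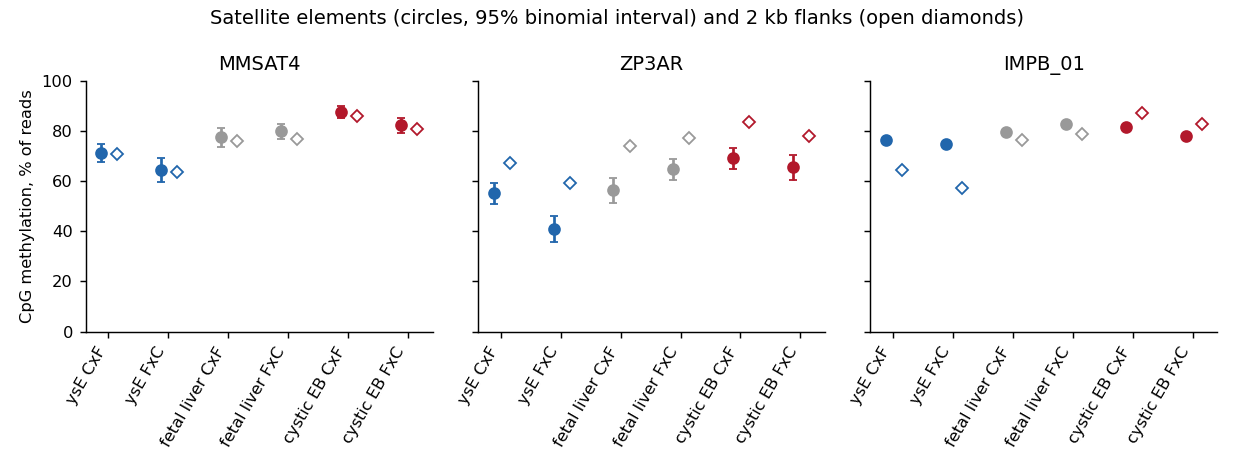
CpG methylation of 3 satellite names (circles, percent of reads with 95% exact binomial intervals) and of the 2 kb on either side of their elements (open diamonds) in the 6 bisulfite libraries. MMSAT4 lies close to its 2 kb flanks, ZP3AR below them in all 6 libraries, and IMPB_01 above them in ysE and below them in cystic EBs.

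The surroundings of the elements differed by name. The 2 kb flanks of IMPB_01 were methylated at 64.6% and 57.1% in ysE, 87.4% and 82.8% in cystic EBs and 76.6% and 78.9% in liver. IMPB_01 minus its flanks was 14.7 percentage points ± 4.14 (SD, n = 2) in ysE, -5.32 ± 0.82 in cystic EBs and 3.57 ± 0.44 in liver, so the sign changed between the tissues. The IMPB_01 elements varied less between the tissues than the DNA around them. A few calls with many reads weighed on the IMPB_01 values. Without CpG calls over 20 reads IMPB_01 stood at 71.7% and 72.0% in ysE, 79.7% and 77.0% in cystic EBs and 78.1% and 80.4% in liver. The flanks were not read without such calls. MMSAT4 differed from its flanks by 0.69 ± 0.04 in ysE, 1.48 ± 0.14 in cystic EBs and 2.44 ± 0.98 in liver. With flanks of 500 bases the MMSAT4 values were -1.65 ± 2.62 in ysE, 0.85 ± 3.49 in cystic EBs and 0.11 ± 1.94 in liver, so the sign in ysE turned with the width. ZP3AR was below its flanks in each tissue, at -15.2 ± 4.55 in ysE, -13.4 ± 1.26 in cystic EBs and -15.2 ± 3.63 in liver. These differences were not tested.

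Among single elements with at least 5 reads, the median satellite element was methylated at 80% and 83.3% in ysE, 88.9% and 90% in cystic EBs and 87.5% and 90% in liver. Over all repeats the medians were 66.7% and 58.3% in ysE, 91.7% and 85.7% in cystic EBs, and 80% and 83.3% in liver. Some IMPB_01 elements carried many reads at few CpGs. The element at chr10:125128869-125129000, with 56 to 163 reads, was at 97.5% and 100% in ysE, 95.4% and 96.6% in cystic EBs and 95.1% and 98.2% in liver. The share of satellite elements at 20% or less was 9.36% and 9.43% in ysE, 5.75% and 5.77% in cystic EBs and 5.83% and 4.77% in liver, against 17.2% and 22.3% of all repeats in ysE, 3.20% and 5.40% in cystic EBs, and 6.79% and 5.86% in liver. This share of weakly methylated elements was thus smaller in satellites than in all repeats in ysE and liver, and larger in cystic EBs.

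The major satellite had few reads at CpGs. GSAT_MM was at 42.9% and 75% in ysE (7 and 36 reads), 93.2% and 92.7% in cystic EBs (279 and 205 reads) and 82.0% and 69.9% in liver (61 and 146 reads). In ysE the intervals ran from 9.90% to 81.6% and from 57.8% to 87.9%, so a difference from liver was not detectable at this depth. A CpG at chr9:35305596 gave 215 of the 279 reads in cystic EBs CxF, all methylated. The element around it (chr9:35305206-35305609) also gave 21 of the 36 reads in ysE FxC, all methylated. Without that element, GSAT_MM stood at 42.9% and 40% in ysE (7 and 15 reads), 70.3% and 89.4% in cystic EBs (64 and 142 reads) and 63.3% and 69.9% in liver (30 and 146 reads). Of the 142 reads in cystic EBs FxC, 88 came from the CpG at chr14:19417436, 86 of them methylated. Without CpG calls over 20 reads, cystic EBs FxC stood at 75.9% on 54 reads. In the array at chr9:3000003-3038419 cystic EBs stood at 69.4% and 61.5% on 49 and 13 reads, ysE at 60% and 35.7% on 5 and 14, and liver at 38.9% and 69.5% on 18 and 95. SYNREP_MM had 3 to 24 reads per library, too few for a comparison.

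H3K4me3 in VYS overlapped 57 of the 25434 satellite elements (0.224%), against 13382 of 2634743 repeats (0.508%), in 1 library with no replicate. None of 908 MMSAT4 and of 5684 MurSAT1 elements had a peak. Of GSAT_MM 7 of 80 elements did (8.75%), of SYNREP_MM 3 of 68, of SUBTEL_sa 2 of 13, of ZP3AR 10 of 1146 and of IMPB_01 35 of 17529. The 3 SYNREP_MM elements are those at chr2:98662469-98666525 that hold most of its RNA reads in cystic EBs and mesoderm, though not in ysE. The SUBTEL_sa element and the IMPB_01 element whose stretches are printed above were each under a peak. A peak over an array reports reads placed there, and satellite arrays gather reads of copies that the assembly lacks, so the part of placement in these overlaps was not tested.

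Genes whose products bind or modify satellite chromatin were read from a list of 28, of which 27 were tested by edgeR on transcripts. In cystic EBs against ysE 8 were higher and 4 lower (median log2 fold change 0.06, all transcripts 0.18), while 33.7% of all transcripts were higher and 27.2% lower. Against mesoderm 3 were higher and 4 lower, with 21.1% and 21.4% of all transcripts. In ysE against mesoderm 3 were higher and 8 lower, where 49.1% of all transcripts were called, 22.8% higher and 26.3% lower. The genes described below were among those with the largest changes and are given by role.

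Atrx, a chromatin remodeller that with DAXX deposits histone H3.3 at heterochromatin, had an RPKM of 15.6 and 17.9 in cystic EBs against 3.98 and 2.57 in ysE and 11.8 and 11.6 in mesoderm. It rose by 1.99 on the log2 scale in cystic EBs over ysE (SE 0.23, adjusted p 0.000341) and stood at -1.58 in ysE over mesoderm (adjusted p 0.00111). Cbx5, the HP1 alpha protein, had an RPKM of 58.0 and 55.8, 23.3 and 23.4, and 59.98 and 62.7 in the same order, with log2 fold changes of 0.93 (adjusted p 0.00166) and -1.15 (adjusted p 0.000767). Both were lowest in ysE.

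Dnmt3b, a de novo methyltransferase needed to methylate the centromeric minor satellite, had an RPKM of 39.3 and 17.4 in cystic EBs against 7.39 and 8.21 in ysE and 6.71 and 7.08 in mesoderm (log2 fold change over ysE 1.52, SE 0.36, adjusted p 0.00849). Hjurp, the chaperone of the centromeric histone CENP-A, was higher by 0.92 (adjusted p 0.00216). Dnmt3a, the other de novo methyltransferase, went the other way, at -0.78 in cystic EBs over ysE (adjusted p 0.00449) and 1.04 in ysE over mesoderm (adjusted p 0.00154). Zbtb24, a zinc finger protein whose loss leaves centromeric satellites hypomethylated in human, did the same at -0.82 (adjusted p 0.00597) and 1.11 (adjusted p 0.00197). Suv39h1, an H3K9 methyltransferase of the pericentromere, was at 9.63 and 10.9 in ysE against 22.9 and 22.4 in mesoderm (log2 fold change -0.90, adjusted p 0.00143), and at 10.8 and 12.6 in cystic EBs. All these adjusted p are from edgeR over all transcripts.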

How the data were processed

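Of the deposited files, 4 kinds were used. The authors aligned RNA reads to mm10 with GSNAP and deposited raw read counts per RepeatMasker element outside genes and per RefSeq transcript. How reads that match several places were treated is not given in the sources used here. The authors' RPKM values per transcript were used for levels of genes only. The deposited bisulfite files give the percent of methylated reads at each CpG and the reads behind it, from BisSNP with low coverage settings. The deposited H3K4me3 peaks carry the score that MACS 1.4.2 gave them against input, called in 1 library.

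Elements whose class starts with Satellite were taken and reads were summed by name. The class was picked for study, and the lists were chosen, with earlier results of these data known, while its members follow from the annotation alone. Names were tested with edgeR 4.0.16 (quasi-likelihood, TMM, low reads filtered by its own rule) over all names, with 3 groups in 1 fit and Benjamini-Hochberg adjustment. RPM were taken over repeat reads outside RNA genes. Methylated and unmethylated reads were summed by name, and names with at least 10 reads in every library were tested in edgeR's model for bisulfite reads. These libraries had 3728717 to 5542839 CpG calls at 1.80 to 2.21 reads per call. Flanks reached 2 kb to either side. Exact binomial intervals at 95% cover counting error only, since PCR copies were not told apart. Peaks were overlapped with bedtools 2.31.1, with at least 1 base shared.

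All names were given. By rule, single elements were named where 1 element held at least 20% of the reads of its name in a library. The others named, the windows and the long IMPB_01 copies were chosen after their values were seen. Of the list of genes, at most 8 with the largest changes were to be named. 1 of these is not reported here. Nothing says that libraries of a group came from separate cultures beyond the litters and clones given, so p-values measure the spread between these libraries. The edgeR fits of RNA and of methylation over names were run on simulated data for cystic EBs against ysE, and no other fit was. Alternatives were DESeq2 1.42.0, limma 3.58.1, other library sizes and filters, leaving out the top element of each name or 1 library, and a replicate block. Cystic EBs of another clone, exon counts and the RNA of liver and of ysE at E12.5 took no part in the repeat tests.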

Additional observations from a re-analysis of the deposited data

How the results depend on the processing

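Over the alternatives, 91 values that answer a comparison stayed close to those reported, 12 gained and 12 lost more calls, and 14 moved. Close allows a small change in the number of calls, so a value counted there can have lost or gained a call. Of the values of single names, 339 kept direction and call, 18 gained and 14 lost the call and 18 turned direction. None of these 18 was called as reported, and 1 passed the threshold after turning (GSAT_MM for cystic EBs over ysE without ysE B, adjusted p 0.0263, edgeR). The cause was not tested. Leaving out 1 library leaves 1 library in a group, and the calls of satellite names and of all names both changed with the library left out. For cystic EBs against mesoderm and for ysE against mesoderm, DESeq2 called 2 and 3 satellite names, against 130 and 393 of all 1190. Library sizes from transcripts gave 1 and 2, against 49 and 221 of 1190. Leaving out the top element of each name gave 1 and 2, against 37 and 245 of 1155. Leaving out RNA gene names gave 2 for ysE against mesoderm, against 259 of 1111. For methylation, such a fit leaves 1 library in a tissue, and the calls of satellite names and of all names both changed as well. Taking only elements with at least 3 reads in every library was a setting chosen after seeing the data. It gave 0 methylation calls for cystic EBs against ysE, with ZP3AR untested, where 54.9% of all names tested were called. Of the heterochromatin genes, leaving out 1 library gave 7 to 14, 3 to 8 and 7 to 14 calls in the 3 comparisons. Calls over all transcripts in these fits are not given here. These ranges therefore cannot tell a change in the listed genes from a change in the whole fit, and no conclusion is drawn from them.

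Libraries of the same letter (A or B) or cross (CxF or FxC) were compared by their deviations from group means. Over names these correlated at 0.00918 in RNA and -0.0633 to -0.00251 in methylation. A shift common to all names cannot show in such a correlation, so it does not tell whether these libraries were paired. With a replicate block, 1 satellite name was called for ysE against mesoderm (MurSAT1, log2 fold change -1.59, adjusted p 0.0330, edgeR), against 73 of all 1174. Without a block in these 4 libraries 1 was called too, against 126 of 1174. Methylation with a block had 0 called for ysE against liver, 0 for cystic EBs against liver and 2 for cystic EBs against ysE. Over all 1019 names, 742, 205 and 946 were called there.

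Directions turned as follows, on the log2 scale. For ysE over mesoderm, IMPB_01 (-0.01) was 0.022 with DESeq2, 0.24 with transcript library sizes, 0.091 without the top element and -0.21 to 0.20 without 1 library. MMSAT4 (-0.25) was 0.0064 with transcript library sizes and -0.68 to 0.081 without 1 library. SUBTEL_sa (-0.06) was 0.18 with transcript library sizes, 0.33 without the top element and -0.80 to 0.63 without 1 library. For cystic EBs over ysE, GSAT_MM was -1.46 to 3.59 and (CATTC)n -1.15 to 6.48 without 1 library, and (CATTC)n over mesoderm -4.21 to 1.49. Methylation of cystic EBs over liver with the elements with at least 3 reads was 0.056 for IMPB_01 and -0.20 for MMSAT4, and without 1 library IMPB_01 was -0.30 to 0.010.

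With RNA genes included, satellites held 0.146% of repeat reads in cystic EBs, 0.0818% in ysE and 0.148% in mesoderm, and without the top elements ysE had 0.343%. Methylation of ysE was 69.5% without CpG calls over 20 reads. The mean of the median elements was 81.7% in ysE, 89.4% in cystic EBs and 88.75% in liver, and with at least 3 reads in every library 86.3%, 89.6% and 89.02%. In liver, satellites minus flanks was 1.97 points with flanks of 500 bases and 2.61 with 5000. Of the H3K4me3 peaks, those at or above the median score overlapped 0.114% of satellite elements, against 0.331% of all repeats. At about 2 reads per CpG call, single elements of GSAT_MM and SYNREP_MM could not be compared.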

Other observations

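Some annotated satellites share their reads with another annotation. The SYNREP_MM element at chrX:109818164-109818230 covers the CENSAT_MC element at chrX:109818169-109818224, and both had 10 reads in d15 cystic EBs, 8 in ysE B, 11 in mesoderm B and 0 in the other 3 libraries. On chromosome 17 the IMPB_01 elements at chr17:31742876-31742959 and chr17:31768532-31768614 both had 1544 reads in ysE A and 0 in ysE B, while mesoderm B had 1558 and 0. On chromosome 4 the IMPB_01 elements at chr4:132596872-132597658 and chr4:132597707-132598080, side by side, both had 118 and 233 reads in ysE and 0 in cystic EBs. On chromosome 5 the ZP3AR element at chr5:137730172-137730280 had 1 read in ysE A and 612 in ysE B, and 172 in mesoderm A and 0 in mesoderm B. In the bisulfite data of cystic EBs FxC, the CpG at chr14:19417436 in a GSAT_MM element carried 88 reads, 86 of them methylated.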
